A study of Mus musculus with 4 samples.

Results

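Mesothelial cells were sought among sorted cells of the mouse ascending aorta by the RNA of their surface-layer markers, and 50 were found among 28540 cells. A cell counted as mesothelial if at least 2 of 4 mesothelial genes (Msln, Upk3b, Lrrn4 and Krt19) had a UMI, a unique molecular identifier that stands for 1 captured transcript. It also had to hold fewer than 5 UMIs of the smooth muscle gene Myh11 and none of the endothelial gene Pecam1 or the leukocyte gene Ptprc. Barcodes with fewer than 500 detected genes or with over 10% of their UMIs from mitochondrial genes were set aside, which left 28540 of 31676 barcodes. These 7 genes chose the cells, so their levels are given as a description only.

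The study compared the response to angiotensin II (AngII), the effector hormone of the renin system and a vasoconstrictor, of the second heart field (SHF) lineage with that of other lineages. All mice were males of the Mef2c-mTmG strain, in which a reporter marks a lineage, and living single cells were sorted by lineage before 10x Genomics 3' v3 libraries were made. The libraries used were SHF baseline (SHF lineage, no infusion), SHF AngII (the same lineage after 3 days of AngII) and CNC AngII (a lineage whose abbreviation the labels do not spell out, after 3 days of AngII). CNC baseline was not analysed here. The mice's ages and the number pooled in a library are not given in the sources used here. With 1 library per group no difference has a replicate check, and every interval below is a 95% interval that covers counting error only.

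The mesothelium is a thin, single-layered epithelium that covers the heart, the lungs and the body cavities, and on the heart it is called the epicardium. Its cells combine keratins and tight junctions with features of connective tissue, secrete a lubricating coat, and make complement and other defence proteins. The proximal ascending aorta lies inside the pericardial sac and carries such a layer on its outer face, next to the fibroblasts of the adventitia. Fibroblasts of the same libraries were therefore the cells of comparison. They were defined by at least 1 UMI of Pdgfra, a growth factor receptor, at least 5 of Dcn, a matrix proteoglycan, and at most 2 of Myh11, and they numbered 3940 at SHF baseline, 2608 under AngII in SHF and 843 under AngII in CNC.

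The mesothelial cells were 11 of 8579 cells of SHF baseline, 35 of 9490 of SHF AngII and 4 of 10471 of CNC AngII. Their share was 0.128% in SHF baseline (exact binomial interval 0.0640 to 0.229%), 0.369% in SHF AngII (0.257 to 0.513%) and 0.0382% in CNC AngII (0.0104 to 0.0978%). The interval of SHF AngII lay above those of the other libraries, and the intervals of SHF baseline and CNC AngII overlapped. Sorting by lineage and the amount of outer layer left on the tissue can set these shares, and their part was not tested. The shares describe sorted libraries and not the aortic wall.

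Among the 50 cells, 41 had all 4 marker genes with a UMI, 6 had 3 and 3 had 2. The genes that defined them stood at a similar order of magnitude in each library. Msln encodes mesothelin, a surface glycoprotein that binds the mucin Muc16, and lies at chr17:25748613-25754378 on the minus strand. Levels are given as CPM, the UMIs of a gene divided by all UMIs of the same cells, times 1000000. Msln stood at 1783 CPM (SHF baseline), 1480 CPM (SHF AngII) and 1956 CPM (CNC AngII). Upk3b, a uroplakin of the cell surface at chr5:136038496-136046487 on the plus strand, stood at 2337, 1069 and 1143 CPM in the same order. Lrrn4, a leucine-rich repeat protein at chr2:132868305-132880891 on the minus strand, stood at 524, 478 and 508 CPM, and Krt19, a keratin at chr11:100140810-100148665 on the minus strand, at 987, 670 and 584 CPM. Coordinates are those of build GRCm38. In fibroblasts none of the 4 genes exceeded 3.36 CPM in any library.

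More cells lay just outside the threshold than inside the rule. The 3 cells with exactly 2 marker genes held 1, 5 and 8 of 16 other mesothelial genes described next. Outside it, 131 cells had exactly 1 of the 4 genes, and in 75, 11 and 6 cells of the 3 libraries that gene was Krt19. The 66, 23 and 2 cells of this kind that no exclusion gene barred held at most 3 of the 16 genes. A further 10 cells had at least 2 marker genes but were barred, 5 by Myh11, 3 by Pecam1 and 2 by Ptprc.

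The label was compared with 16 mesothelial genes outside the selection rule: Wt1, Upk1b, Muc16, Bnc1, Krt7, Krt8, Krt18, Gpm6a, Cldn15, Rspo1, Nkain4, Aldh1a2, Slpi, Crb2, Myrf and Ezr. The list was chosen with earlier results of these data known, so the comparison is a description. The chosen cells carried most of these genes together, and fibroblasts carried almost none. Per cell, a median of 11 of the 16 had a UMI in SHF baseline (range 1 to 15), 13 in SHF AngII (10 to 16) and 14.5 in CNC AngII (8 to 15). In fibroblasts the median was 0 in each library and the highest values were 5, 6 and 3. At least 8 of the 16 were present in 9 of 11, 35 of 35 and 4 of 4 mesothelial cells, and in no fibroblast. Cells that met both definitions were taken out of the fibroblasts beforehand, so the fibroblast result is partly set by that choice. Of the 3, 9 and 1 cells that met both, 1, 9 and 1 held at least 8 of the 16. The median depth of the mesothelial cells was below that of the fibroblasts, at 7913, 13028 and 9701 UMIs against 9560, 15516.5 and 12699.

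**Figure D1:**
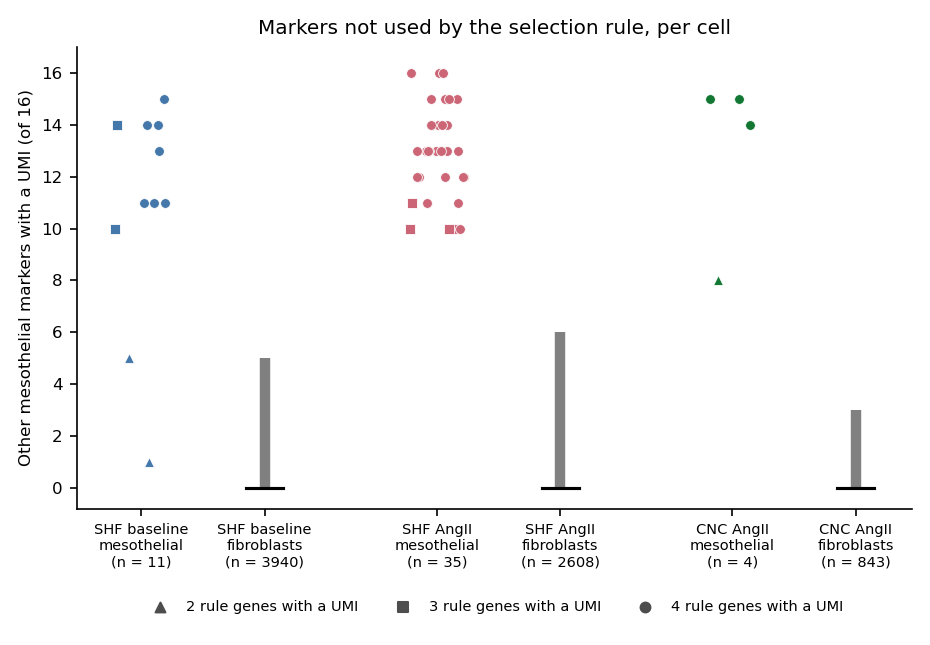
Number of the 16 mesothelial genes outside the selection rule that had a UMI (vertical axis), for each mesothelial cell (points, shaped by how many of the 4 rule genes had a UMI) and for the fibroblasts of the same library (grey bars from the lowest to the highest cell, black line at the median). All 35 cells of SHF AngII hold at least 10, whereas 2 cells of SHF baseline lie within the range of the fibroblasts.

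One SHF baseline cell went against its label. It had 13779 UMIs, a single UMI each of Upk3b and Krt19 and 1 of the 16 other genes, but 214 UMIs of the adventitial fibroblast gene Pi16 and 129 of Dcn. A second SHF baseline cell, the shallowest at 3011 UMIs, held 5 of the 16. These are the 2 baseline cells with only 2 rule genes, and results found to rest on them are given with and without them. A different SHF baseline cell had 0.0144% mitochondrial UMIs where the median was 4.84%, but held 14 of the 16 genes.

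Markers of other cell types were low, apart from those of fibroblasts, though the endothelial gene Kdr and the squamous gene Krt14 stood above their fibroblast levels. All but 1 of the 50 cells had at least 5 UMIs of Dcn, 14 had a UMI of Pdgfra, and 13 also met the fibroblast definition (3, 9 and 1 by library); they were counted as mesothelial cells only. The 6 fibroblast markers outside the definitions summed to 5419, 5350 and 4648 CPM in the mesothelial cells, against 22840, 21547 and 17388 CPM in fibroblasts. Of the SHF baseline sum, 69.9% of the UMIs were in the cell with the fibroblast profile, and it was 1895 CPM without that cell. The 5 smooth muscle markers outside the rule summed to 151, 1187 and 330 CPM, against 1227, 3990 and 3776 CPM in fibroblasts.

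Of 6 endothelial genes outside the rule, Cdh5, Tie1, Emcn and Cldn5 had 0 UMIs in all 3 libraries and Egfl7 had 0, 4 and 0. Kdr, a receptor of vascular endothelial growth factor, was present with 20, 48 and 5 UMIs. It was over 2-fold above fibroblasts in all 3 libraries, at a median log2 ratio of 5.19. The 6 genes summed to 201, 91.7 and 127 CPM, against 15.4, 5.92 and 9.01 CPM in fibroblasts. T and B cell, Schwann cell and adipocyte markers had 0 UMIs in every library. Of the squamous markers Krt14 was present, while Krt5 and Trp63 were at 0. Of 5 macrophage genes outside the rule, 3 had a UMI in CNC AngII, while C1qa and Adgre1 were at 0. They summed to 1194 CPM, against 408 CPM in that library's fibroblasts, but 43 of the 47 UMIs were in 1 cell with 2 rule genes, and 39 of those were of Lyz2. Without that cell the sum was 128 CPM. The part of macrophage RNA in the CNC AngII values was not tested.

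The libraries held 9412, 11166 and 11098 barcodes. They shared 29 to 34 barcodes in each pair, at most 0.361% of the smaller library. A single mesothelial cell of SHF AngII had a barcode that also occurs in CNC AngII, where it was not a mesothelial cell. Scrublet, a doublet caller, marked 2.01 to 2.65% of the cells of a library and 0, 1 and 1 of the mesothelial cells. Marked cells were kept, and their removal is an alternative.

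Mesothelial cells differed from fibroblasts first in epithelial genes. Keratins, a uroplakin and junction genes were abundant in mesothelial cells and near 0 in fibroblasts, while fibroblast matrix genes were lower. Each class was pooled within a library, and a gene was called when log2((CPM + 1)/(CPM + 1)) was at least 2-fold in the same direction in all 3 libraries. Of 2877 genes with a mean of at least 50 CPM, 218 were called higher (7.58%) and 174 lower (6.05%). The median log2 ratio over all genes tested was 0.10. Since the selection rule fixes this contrast, these are descriptions with no test.

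Of the 174 genes called lower, 90 had 0 UMIs in the mesothelial cells of at least 1 library, and 82 of those were at 0 in CNC AngII, whose 4 cells hold 39373 UMIs. With 3 UMIs set as the bound for such genes, 126 of the 174 remained at least 2-fold lower in all 3 libraries. Leaving out CNC AngII, SHF AngII or SHF baseline gave 260, 294 and 293 genes higher and 205, 223 and 223 lower, of which 203, 215 and 201 of the higher and 173, 171 and 154 of the lower were among those called with all 3 libraries.

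Keratins of simple epithelia led the higher genes. Krt18 and Krt8, which pair to form the keratin filament of simple epithelia, stood at 584 and 463 CPM in SHF baseline, 594 and 557 in SHF AngII, and 1168 and 686 in CNC AngII. Their fibroblast levels did not exceed 0.170 CPM in any library. Krt7, another simple-epithelial keratin, stood at 473, 444 and 737 CPM. These keratins were high in each library, with a UMI of Krt18 in 81.8%, 94.3% and 75% of the mesothelial cells. In cells with at least 5 Myh11 UMIs and none of Pecam1 or Ptprc, a smooth muscle gate, Krt18 was not absent: 18.3%, 5.82% and 14.5% had a UMI, at medians of 12670, 13797.5 and 13592.5 UMIs per cell, and its level there was at most 28.2 CPM.

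Krt14, a keratin usually described in stratified epithelia, had 19, 59 and 2 UMIs in mesothelial cells, or 191, 104 and 50.8 CPM, and 0 UMIs in the fibroblasts of all 3 libraries. With 3 UMIs as the fibroblast bound it was at least 2431-fold higher in SHF baseline and at least 1545-fold higher in SHF AngII. It was present in 45.5%, 48.6% and 25% of the cells. In SHF baseline 78.9% of its UMIs were in 1 cell. Without that cell Krt14 stood at 43.7 CPM there, so the 2431-fold bound rests largely on that cell. Vim, the filament protein of mesenchymal cells, was not called: it stood at 1501, 1522 and 1118 CPM, with log2 ratios to fibroblasts of -0.98, -1.58 and -2.04, and had a UMI in every mesothelial cell.

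Surface and membrane genes formed the next group. Upk1b, a tetraspanin partner of the uroplakins, stood at 453, 739 and 1041 CPM in SHF baseline, SHF AngII and CNC AngII. Muc16, a large membrane mucin that binds mesothelin, stood at 353, 77.6 and 127 CPM and had 0 UMIs in fibroblasts of each library, so that it was at least 4478-fold, 1153-fold and 498-fold higher. Gpm6a, a membrane glycoprotein also found in neurons, stood at 1541, 603 and 584 CPM against at most 1.68 CPM in fibroblasts. The first of these was highest in CNC AngII and the others in SHF baseline.

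Other genes with the most distant ratios were Cxadr, the coxsackievirus and adenovirus receptor of tight junctions (171, 591 and 432 CPM), Lsr, a protein of tricellular junctions (151, 152 and 152 CPM), and Tspan8, a tetraspanin (141, 102 and 102 CPM). Myo5b, a motor of apical vesicle traffic, stood at 141, 132 and 102 CPM. Myl7, a myosin light chain best known from the cardiac atrium, stood at 735, 742 and 483 CPM and at no more than 0.0850 CPM in fibroblasts. Of 4 cardiomyocyte genes, Myh6, Nppa and Actc1 were at 0 UMIs in the mesothelial cells of every library. The other, Tnnt2, was at 0 in SHF baseline and CNC AngII and had 18 UMIs in 6 of 35 SHF AngII cells (31.7 CPM, against 65.3 CPM in fibroblasts). Lgals2, a galectin, reached 191, 106 and 610 CPM. Dmkn (dermokine), Pkhd1l1, Tmem108 and AU021092 completed the 15 highest genes, with log2 ratios between 6.44 and 9.13.

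**Figure D2:**
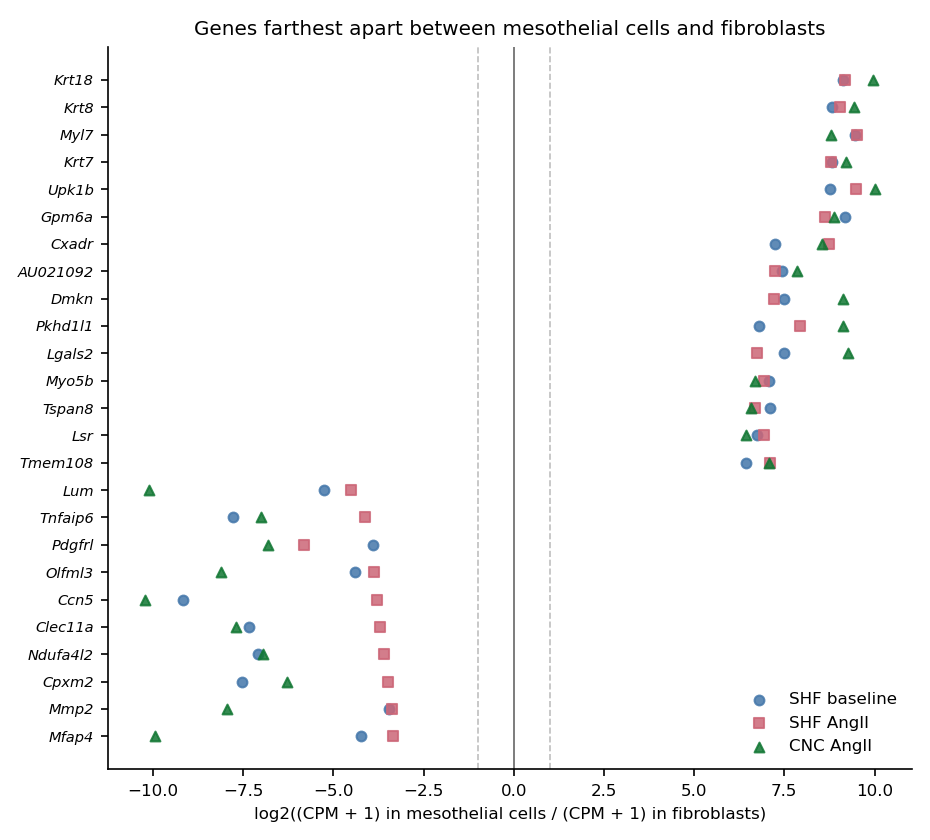
log2 ratio of mesothelial cells over fibroblasts, on the CPM + 1 scale, in each of the 3 libraries (points) for the 15 highest and 10 lowest genes by the library nearest to 0. Dashed lines mark 2-fold. Lower genes lie far left in CNC AngII where they have 0 UMIs in its 4 cells.

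By list, all 14 of the 16 mesothelial genes outside the rule that met the 50 CPM minimum were called higher, with a median log2 ratio of 6.52. Bnc1 and Crb2 were below the minimum. All 6 junction and polarity genes that met it, of 21 listed, were called higher as well, against 7.58% over all genes tested. They were Cdh3 (P-cadherin), the claudins Cldn3 and Cldn15, the adhesion proteins F11r and Nectin2, and Ezr (ezrin), the linker of microvilli to actin. Ezr stood at 1178, 660 and 889 CPM against 21.7, 11.4 and 12.2 CPM in fibroblasts. Cdh1, the classical epithelial cadherin, had 0, 4 and 0 UMIs in the mesothelial cells, and Epcam, another epithelial adhesion gene, had 0 in each library.

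Among 5 transcription factors tested, Wt1 and Myrf were higher, Tcf21 was lower, and Gata6 and Hand2 were not called. That is 40% higher and 20% lower, against 7.58% and 6.05% over all genes. Wt1, a defining factor of the epicardium, stood at 141, 159 and 152 CPM, a level that hardly varied between libraries, against 1.21, 1.80 and 1.53 CPM in fibroblasts. Myrf stood at 161, 102 and 127 CPM. Tcf21, a factor of fibroblast progenitors, stood at 50.4, 40.6 and 25.4 CPM against 236, 135 and 62.2 CPM. Gata6, a factor shared by mesothelium and cardiovascular mesenchyme, was above fibroblasts in each library, with log2 ratios of 0.90, 1.89 and 1.07, but was under 2-fold in SHF baseline.

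Retinoic acid genes split. Aldh1a2, the main retinoic acid synthase of the embryonic epicardium, stood at 171, 187 and 305 CPM against 0.892, 7.41 and 22.7 CPM in fibroblasts. Rarres2, which encodes the chemoattractant chemerin, stood at 3445, 1631 and 2514 CPM against 763, 343 and 283 CPM. Rbp4, the carrier of retinol, was called lower, with 60.4, 60.0 and 0 CPM against 1409, 608 and 542 CPM, which is at least 7.11-fold lower in CNC AngII. All 6 of its SHF baseline UMIs were in the 3011 UMI cell with 2 rule genes, so that it was at 0 there without that cell.

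Some complement and innate defence genes were higher in mesothelial cells. Of 14 genes tested in this list, C3, C2 and Slpi were higher, 0 were lower, and the median log2 ratio was 1.87. The share called higher was 21.4%, against 7.58% over all genes. Slpi is a defence gene and also 1 of the 16 mesothelial genes above. C3, the central complement component, stood at 2770, 5165 and 8051 CPM, against 576, 556 and 470 CPM in fibroblasts, and had a UMI in every mesothelial cell. C2, a protease of the classical pathway, stood at 483, 365 and 432 CPM against 11.2, 10.4 and 14.4 CPM; its exons overlap those of another annotated transcript on the same strand, so these counts may be shared. Slpi, a secreted protease inhibitor, stood at 70.5, 518 and 254 CPM against at most 0.425 CPM.

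Growth factor carriers also separated the classes. Igfbp5 and Igfbp6, which bind insulin-like growth factors, stood at 8290 and 5913 CPM in SHF baseline mesothelial cells, against 1472 and 347 CPM in fibroblasts. Both stayed above fibroblasts in the AngII libraries, with log2 ratios of 2.77 and 3.18 in SHF AngII and 2.44 and 3.56 in CNC AngII. Rspo1, an activator of Wnt signalling, stood at 705, 302 and 254 CPM against at most 8.33 CPM. Igf1 itself was lower, at 111, 152 and 330 CPM against 675, 1068 and 1098 CPM. Of the 12 genes tested in this list 3 were higher and 3 were lower, Igfbp7 and Sfrp1 being the other lower ones. Each share is 25%, against 7.58% higher and 6.05% lower over all genes.

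Fibrillar matrix was the list with the most genes called lower, 12 of 19, with a median log2 ratio of -2.18 (-2.14 with genes at 0 UMIs set at their bound). Its share called lower was 63.2%, against 6.05% over all genes. Col1a1, a chain of type I collagen, stood at 534, 1243 and 838 CPM against 3689, 4456 and 3793 CPM in fibroblasts. Lum, a proteoglycan of collagen fibrils, stood at 50.4 and 58.2 CPM in SHF baseline and SHF AngII and at 0 in CNC AngII, against 1970, 1362 and 1097 CPM. With 3 UMIs as its bound in CNC AngII it was 14.4-fold lower there, a log2 ratio of -3.85. The exact interval reached -3.55. Collagen genes were lower without being absent, with a UMI of Col1a1 in 81.8%, 94.3% and 100% of the mesothelial cells.

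The other lowest genes were Mfap4, a microfibril protein, and Mmp2, a gelatinase, with Ccn5, Tnfaip6, Olfml3, Pdgfrl, Clec11a, Cpxm2 and Ndufa4l2. All of them had 0 UMIs in CNC AngII. With 3 UMIs as the bound there, Tnfaip6, Ndufa4l2, Pdgfrl and Cpxm2 were 1.67-, 1.63-, 1.46- and 1.01-fold lower, under the 2-fold mark. Mfap4, Mmp2, Ccn5, Olfml3 and Clec11a remained over 2-fold lower at that bound. Mfap4 stood at 121, 146 and 0 CPM against 2288, 1485 and 980 CPM. Of 10 basement membrane genes Nid2, which links laminin and collagen networks, was higher, and Lama2 and Col15a1 were lower. These shares are 10% and 20%, against 7.58% and 6.05% over all genes, so the higher share is near that of all genes. Of 9 genes linked to epithelial-to-mesenchymal transition, Acta2, Tagln and Ccn2 were lower (33.3%) and 0 were higher.

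Chemokine, cytokine and immediate early genes were lower or not called by the rule of 2-fold in all 3 libraries. That rule does not describe each library: Ccl2, not called, stood at 40.3 CPM against 103 CPM in fibroblasts of SHF baseline. In SHF AngII it stood at 764 against 469 CPM. Of 8 chemokines and cytokines tested, Ccl7, Cxcl1, Cxcl12 and Il6 were lower, and of 15 immediate early genes, which are induced within minutes of a stimulus, Junb, Ier2 and Nr4a1 were lower. These shares are 50% and 20%, against 6.05% called lower over all genes. Of 4 prostaglandin and angiotensin genes, Ptgs1, the constitutive cyclooxygenase, was higher at 191, 339 and 203 CPM against 33.2, 22.3 and 31.5 CPM. The inducible Ptgs2 and the angiotensin-converting enzyme Ace were lower. In this list 25% were higher and 50% lower, against 7.58% and 6.05% over all genes. Neither of 2 proliferation genes that met the minimum, Pcna and Stmn1, was called.

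**Figure D3:**
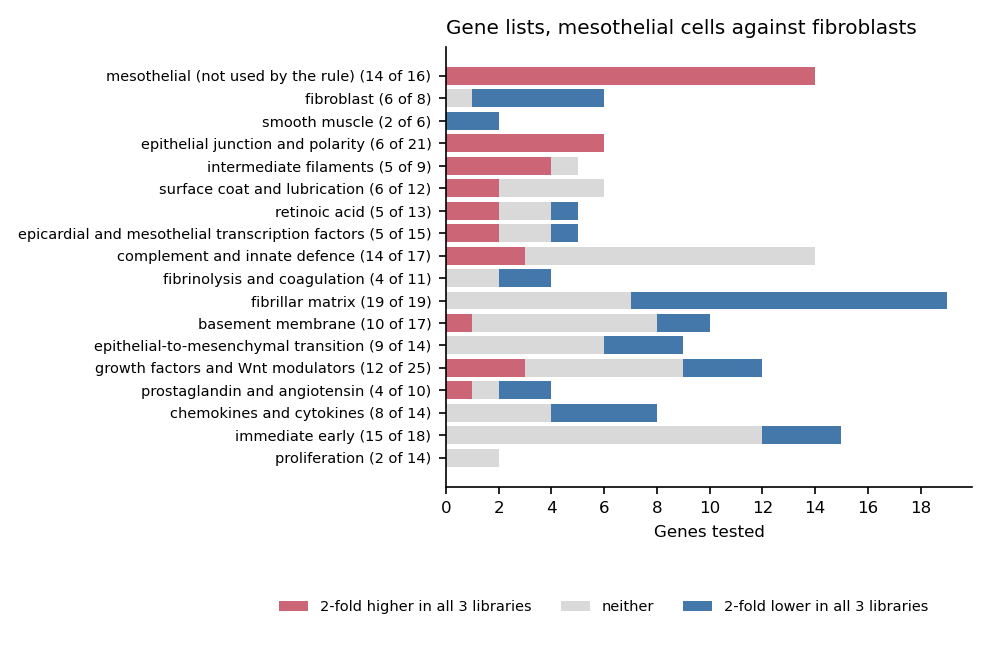
Number of genes per list (horizontal axis) that were at least 2-fold higher (red) or lower (blue) in mesothelial cells than in fibroblasts in all 3 libraries, or neither (grey). Numbers after each name are the genes that met the 50 CPM minimum and the genes listed; all 6 junction genes are higher and 12 of 19 fibrillar matrix genes are lower.

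After 3 days of AngII, SHF mesothelial cells had more RNA of acute-phase and chemokine genes and less of Igfbp5 and Igfbp6 than at baseline. The sums rest on 35 cells with 567052 UMIs and 11 cells with 99280 UMIs. A gene was called when its ratio was at least 2-fold and the exact counting interval of the ratio left out 1. Of 3144 genes, 177 were called higher (5.63%) and 349 lower (11.1%). In fibroblasts of the same libraries, 146 of these genes were called higher (4.64%) and 267 lower (8.49%). The median log2 ratio over all genes was -0.11 in mesothelial cells and -0.06 in fibroblasts. Centring on that median shifted every ratio by 0.11 and gave 222 higher and 286 lower, so that 43.7% of the calls were higher in place of 33.7%.

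The 2 classes share many calls: 173 of the 526 genes called in mesothelial cells were called the same way in fibroblasts, 64 higher and 109 lower, and 13 were called the opposite way. The baseline file was made with an older gene annotation than the AngII files, and 1 library stands for each condition, so library preparation and AngII cannot be told apart. Fibroblast values of the same pair of libraries are therefore given as well. Intervals are computed from the UMI counts without the added 1 CPM.

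Several acute-phase and complement genes were higher under AngII. Saa3, an acute-phase serum amyloid at chr7:46711998-46715700 on the minus strand, had 0 UMIs at SHF baseline, 781 under AngII and 185 in the CNC lineage. With 3 UMIs as the bound, it was at least 45.6-fold higher in SHF AngII than at baseline, and in fibroblasts it went from 0 to 16.3 CPM. Lcn2, an iron-scavenging defence protein, had 0, 267 and 21 UMIs and was at least 15.6-fold higher, with fibroblasts at 2.65 and 96.7 CPM. Neither gene had a UMI in any of the 11 baseline cells, which at their depth allows a share of cells with a UMI of up to 28.5% (exact binomial bound) and sets no limit on cells that express it. Saa3 had a UMI in 15 of 35 and Lcn2 in 29 of 35 SHF AngII cells.

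Slpi had 7 UMIs at baseline and 294 under AngII, a log2 ratio of 2.86 (interval 1.82 to 4.21), while fibroblasts stood at 0.0262 and 0.135 CPM. A single cell held 85.7% of the baseline UMIs and another 48.3% of those under AngII. Without the first the log2 ratio was 5.46 (3.10 to 10.90), on 1 baseline UMI, and without the other 1.96 (0.90 to 3.31). Cfb, a complement factor of the alternative pathway whose exons overlap the same transcript as those of C2, had 2 and 93 UMIs (log2 ratio 2.96, interval 1.13 to 6.09), and fibroblasts went from 22.8 to 161 CPM. Of 14 complement and defence genes tested, 4 were higher and 2, Wfdc2 and Cd55, were lower. The shares are 28.6% and 14.3%, against 5.63% and 11.1% over all genes, so the lower share is near that of all genes. In fibroblasts 3 were higher and 2 lower. Wfdc2, a secreted protein with protease-inhibitor domains, had 53 and 47 UMIs (log2 ratio -2.67; fibroblasts stood at 0.105 and 0.0673 CPM), but 83.0% of the baseline UMIs were in 1 cell. Without that cell its log2 ratio was -0.24 (interval -1.29 to 0.97). Cd55 was no longer called without the 2 baseline cells that had only 2 rule genes. C3 had a log2 ratio of 0.90 (0.72 to 1.08), which lies under the 2-fold mark, and -0.05 in fibroblasts.

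Chemokine genes were higher in both classes. Ccl2, the main monocyte attractant, had 4 UMIs in SHF baseline and 433 in SHF AngII, a 19.0-fold ratio (log2 4.21, interval 2.88 to 6.13), and fibroblasts went from 103 to 469 CPM. Ccl7, a related attractant, had 0 and 175 UMIs (at least 10.2-fold), and was 7.02-fold higher in fibroblasts. Cxcl1, a neutrophil attractant, had 0 and 134 (at least 7.82-fold; fibroblasts 3.91-fold), and Cxcl10 0 and 86 (at least 5.02-fold; fibroblasts 4.56-fold). Single cells carried a large part of these sums. The deepest SHF AngII cell, at 47482 UMIs, held 54.5% of the Cxcl1 and 36.0% of the Ccl7 UMIs, and without it the bounds were 3.89-fold and 7.13-fold. Another cell held 39.5% of the Cxcl10 UMIs, and the bound without it was 3.09-fold. Of 8 chemokine and cytokine genes tested, 5 were called higher in mesothelial cells and 5 in fibroblasts. Both shares are 62.5%, against 5.63% and 4.64% over all genes. Cxcl16, a transmembrane chemokine, was called higher in mesothelial cells (5 and 218 UMIs, log2 ratio 2.91, interval 1.69 to 4.57) and had a log2 ratio of 0.42 in fibroblasts. Csf1, the macrophage growth factor, was the 1 gene called lower (log2 ratio -1.28, interval -2.12 to -0.41), and stood at 0.40 in fibroblasts.

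Prg4, which encodes the lubricant lubricin, had 0 UMIs at baseline and 209 under AngII, in 23 of 35 cells, and was at least 12.2-fold higher; fibroblasts went from 84.3 to 391 CPM. Mt1, a metallothionein that binds zinc and copper, had 31 and 1573 UMIs, an 8.88-fold ratio, where fibroblasts stood at 2540 and 2936 CPM. The baseline cell with the fibroblast profile held 61.3% of its baseline UMIs, and the ratio without that cell was 19.6-fold. Mt1 was present in 8 of 11 and 33 of 35 cells, and in 1 of 11 and 29 of 35 after each cell was thinned to 2000 UMIs. Aldh1a1, a retinaldehyde dehydrogenase, had 16 and 430 UMIs (log2 ratio 2.23, interval 1.52 to 3.05) in 4 of 11 and 34 of 35 cells, while fibroblasts went from 158 to 108 CPM. A single baseline cell held 68.8% of the UMIs, and without it the log2 ratio was 3.71. After thinning it was present in 2 of 11 and 28 of 35 cells. Of 6 retinoic acid genes tested, Aldh1a1 was higher (16.7%), and Aldh1a3 and Rarres2 were lower (33.3%), against 5.63% and 11.1% over all genes. All 13 baseline UMIs of Aldh1a3 were in the cell with the fibroblast profile. Without the baseline cell with the most Rarres2 UMIs, the log2 ratio of Rarres2 was -0.77 (interval -0.98 to -0.56), under 2-fold. Exons of Prg4 overlap those of a gene on the opposite strand. The same holds for Krt7, Krt8, Ezr, Cldn3, Cxadr, Nectin2, Lsr, Nkain4, Rarres2, Tspan8, Lgals2, Tmem108, C2, Cd55, Cxcl10, Cxcl16, Ptgs1, Nid2, Gata6, Hand2, Bmp4, Sfrp2, Tgfb2, Slurp1, Jun, Junb, Igfbp7, Ccn2, Ace, Tagln, Fbn1, Pi16, Mfap4, Lama2, Col15a1, Cpxm2 and Ndufa4l2, and of the marker genes for Bnc1, Crb2, Krt5, Myh6, Nppa, Egfl7 and Pdgfra. Whether the counting used strand is not given in the sources used here. Besides C2 and Cfb, exons of Slpi, Stmn1, Egfl7 and Pdgfra overlap another annotated gene on the same strand.

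Junction genes were called in unequal directions, though the lower call depended on 1 baseline cell. Cldn3 (17 and 285 UMIs, log2 ratio 1.55, interval 0.85 to 2.35) and Nectin2 (log2 ratio 1.09, interval 0.07 to 2.35) were called higher, and Cdh3 was called lower (log2 ratio -1.55, interval -2.55 to -0.52). Cxadr had 17 and 335 UMIs, a log2 ratio of 1.78 (1.09 to 2.58). In fibroblasts the log2 ratios were -1.81 for Cldn3, in the opposite direction, 1.11 for Nectin2, 0.90 for Cdh3 and 0.29 for Cxadr; the last 2 genes stood under 1 CPM there. Without the 2 baseline cells that had only 2 rule genes, Nectin2 stood at 0.83 and was no longer called. For Cdh3, 1 baseline cell held 35.7% of the baseline UMIs. Without that cell the log2 ratio of Cdh3 was -1.01 (interval -2.16 to 0.25), and it was no longer called.

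**Figure D4:**
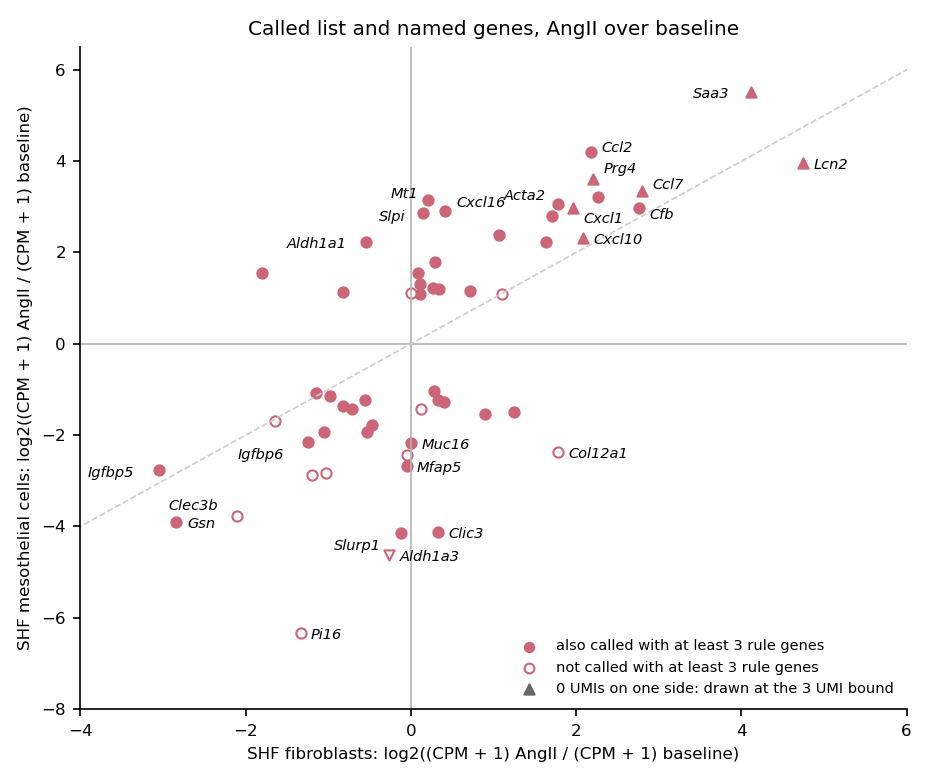
log2 ratio of SHF AngII over SHF baseline, on the CPM + 1 scale, in mesothelial cells (vertical axis) and in fibroblasts (horizontal axis), for the list genes and named genes called in mesothelial cells. The dashed line marks equal ratios; open points are genes no longer called when cells had at least 3 of the 4 rule genes, such as Pi16 and Clec3b. Triangles are genes with 0 UMIs in 1 of the mesothelial sums, drawn at the bound of 3 UMIs; Saa3 lies highest, and Igfbp5 is low in both classes.

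Secreted growth factor carriers and several surface genes were lower under AngII. Igfbp5, at chr1:72857932-72874884 on the minus strand, went from 8290 to 1212 CPM, 6.84-fold lower (log2 ratio -2.77, interval -2.92 to -2.63), and fibroblasts went from 1472 to 177 CPM. Igfbp6 went from 5913 to 1331 CPM, 4.44-fold lower (-2.15, interval -2.31 to -1.99), with a log2 ratio of -1.25 in fibroblasts. Both carriers were lower in both classes. Of 13 growth factor and Wnt genes tested, 0 were higher and 6 were lower, with Rspo1, Bmp4, Sfrp2 and Fgf18 beside the carriers. The lower share is 46.2%, against 11.1% over all genes. In fibroblasts 2 were higher and 3 lower. Fgf18 rests on 11 and 22 UMIs. Only the carriers kept their calls without the baseline cell with the most UMIs of the gene, at log2 ratios of -2.61 and -1.86. Without that cell Bmp4 stood at -1.19 (interval -2.42 to 0.16) and Fgf18 at -1.25 (interval -2.49 to 0.11). Sfrp2 stood at -0.33, with an interval that held 0, and Rspo1 at -0.997 (interval -1.45 to -0.53), just under 2-fold.

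Muc16 had a log2 ratio of -2.17 (interval -2.86 to -1.50), Gpm6a of -1.35 (-1.63 to -1.07) and Tgfb2, a ligand of the TGF-beta family, of -1.93 (-2.59 to -1.28). In fibroblasts Muc16 had 0 UMIs in both libraries, and the log2 ratios of Gpm6a and Tgfb2 were -0.82 and -0.53. Slurp1, a small secreted protein, had 39 and 12 UMIs in 3 of 11 and 4 of 35 cells, and Clic3, a chloride intracellular channel protein, had 23 and 7 UMIs in 6 of 11 and 6 of 35 cells. These last genes are among the 5 lowest by the counting interval, but few cells hold their UMIs; their fibroblast log2 ratios were -0.13 and 0.32, at levels of at most 2.10 CPM. Of 15 immediate early genes, Jun was higher, and Klf2 and Klf4 were lower. These shares, 6.67% and 13.3%, are near the 5.63% and 11.1% over all genes. In fibroblasts 7 of the 15 were lower and 0 higher, and the log2 ratio of Jun was -0.82.

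Fibroblast genes that seemed lower under AngII rested wholly or in part on the SHF baseline cell with the fibroblast profile. Pi16 went from 220 to 15 UMIs, and 97.3% of the baseline UMIs were in that cell. Gsn, an actin-severing protein, and Clec3b, a plasminogen-binding lectin, had 80.3% and 87.2% of their baseline UMIs in the same cell. Without that cell Gsn was still over 2-fold lower, at a log2 ratio of -1.78 (interval -2.24 to -1.32). It stood at 1.39 without all cells that met the fibroblast definition. With at least 3 rule genes per cell, which left 9 baseline and all 35 AngII cells, the log2 ratio of Pi16 moved from -6.34 to -0.44, that of Clec3b from -3.78 to 0.45 and that of Gsn from -3.91 to -1.32. Fbn1, Mfap5 and Dpt moved to between 0.09 and 0.77, and Col12a1 had no baseline UMI left and an AngII level under the bound that 0 UMIs allow. In fibroblasts the log2 ratios of Pi16, Clec3b and Gsn were -1.33, -2.10 and -2.84. Under this setting 181 genes were called higher and 363 lower, of which 146 and 256 were among those called with all cells.

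Contractile and collagen genes were called higher under AngII, and their ratios moved up or down with single cells. Acta2, smooth muscle actin, had 7 and 339 UMIs (log2 ratio 3.07, interval 2.03 to 4.41), and 51.9% of the UMIs under AngII were in 1 cell. Tagln, another contractile gene, had 8 and 323 UMIs (2.81), Col1a1 a log2 ratio of 1.22, Col1a2 of 1.32 and Sparc, a collagen-binding matricellular protein, of 1.08. In fibroblasts the log2 ratios were 1.78 for Acta2, 1.71 for Tagln, 0.27 for Col1a1, 0.11 for Col1a2 and 0.11 for Sparc. Without the SHF AngII cells with at least 50 Acta2 UMIs, which left 33 cells, the log2 ratio of Acta2 was 1.18, of Tagln 0.33, of Col1a1 0.29, of Col1a2 0.94 and of Sparc 0.90. Mt1 stood at 3.20 without those cells, and the bounds of Saa3 and Lcn2 at a log2 ratio of at least 5.64 and 4.05. On the baseline side the cell with the fibroblast profile held 56.9% of the Col1a2 and 37.7% of the Col1a1 UMIs. With at least 3 rule genes per cell the log2 ratio was 1.82 for Col1a1, 2.29 for Col1a2 and 1.36 for Sparc. The deepest SHF AngII cell had 47482 UMIs, 176 of Acta2 and 318 of Col1a1, and held 12 of the 16 mesothelial genes.

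Among genes of mesothelial identity, 26.7% were called between the conditions, against 16.7% over all genes. Of 15 mesothelial genes outside the rule that were tested, Slpi was higher, Muc16, Gpm6a and Rspo1 were lower, and 11 were neither. Rspo1 stood at a log2 ratio of -0.997, just under 2-fold, without the baseline cell with the most UMIs of the gene. Krt18 had a log2 ratio of 0.02 (interval -0.38 to 0.45), Krt8 of 0.27 (-0.18 to 0.75), Krt7 of -0.09 (-0.55 to 0.39), Wt1 of 0.17 (-0.65 to 1.10) and Aldh1a2 of 0.13 (-0.62 to 0.96). The interval of Wt1 holds a 2-fold difference. Those of the keratins do not, but for Krt18 and Krt8 this rests on 1 baseline cell, which held 60.3% and 47.8% of their UMIs. Without it the log2 ratio was 1.18 (0.57 to 1.86) for Krt18 and 1.03 (0.43 to 1.69) for Krt8. Krt7 stood at 0.29 (-0.25 to 0.87) without the same cell. Agtr1a, the main AngII receptor gene of the mouse, had 1 UMI in SHF baseline, in 1 of 11 cells, and 32 in SHF AngII, in 17 of 35 cells; it was below the 50 CPM minimum, its interval of -0.10 to 7.83 held 0, and fibroblasts stood at 5.54 and 2.49 CPM.

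Single cells of SHF AngII differed widely in the acute-phase genes. Saa3 ranged from 0 to 10486 CPM with a median of 0, and 24.5% of its UMIs were in 1 cell. Lcn2 ranged from 0 to 2186 CPM with a median of 309 CPM, and Slpi from 0 to 7534 CPM with a median of 30.6 CPM. Of 8 genes called higher (Saa3, Lcn2, Slpi, Cfb, Ccl2, Ccl7, Cxcl1 and Prg4), a cell held a median of 4, with a range of 1 to 8. No SHF AngII cell lacked all 8, and Saa3 was found with Lcn2 in 14 of its 15 cells. The 8 genes were called higher in these same cells, and Lcn2 alone was in 29 of the 35. These counts are therefore a description, and whether the genes go together was not tested.

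Depth moved with some of these counts. The 29 cells with Lcn2 had a median of 16146 UMIs and the 6 without it 8627, and the 18 cells with Ccl7 had 16649 against 8788 for the 17 without it. For Slpi the medians were 12932 and 13028 UMIs. After thinning to 2000 UMIs, Saa3 was present in 12 of 35 cells, Lcn2 in 17 of 35 and Slpi in 11 of 35, and at baseline in 0, 0 and 1 of 11. Igfbp5 was present in all 11 baseline cells, at a median of 5588 CPM, and in 26 of 35 SHF AngII cells, at a median of 409 CPM. The lowest baseline cell, at 996 CPM, was above the SHF AngII median, though the ranges overlapped.

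**Figure D5:**
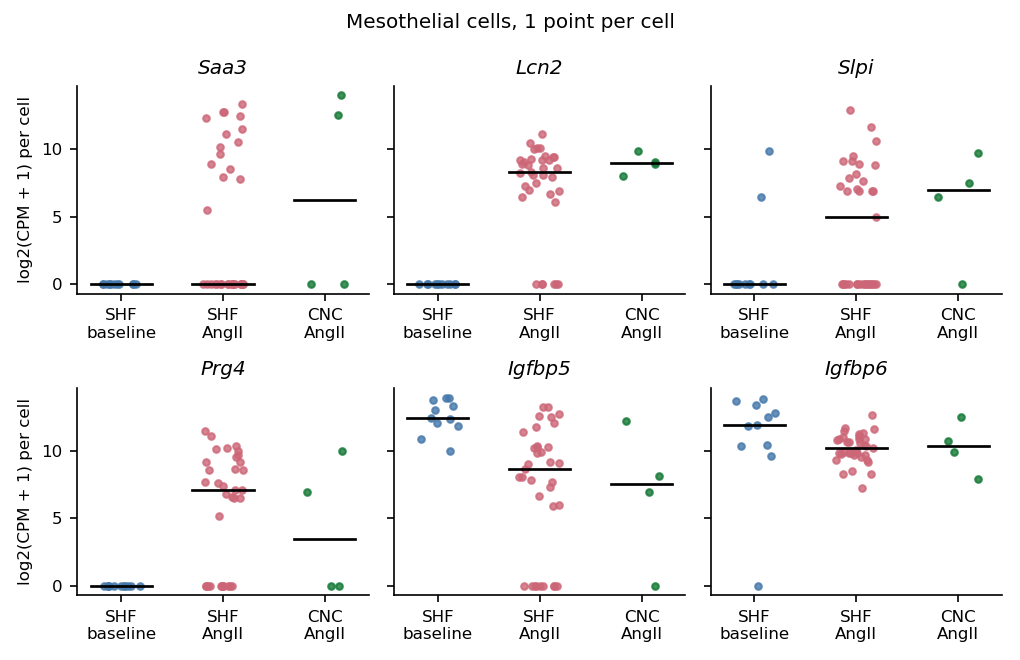
Level of 6 genes in each mesothelial cell, as log2(CPM + 1) (vertical axis), by library (11, 35 and 4 cells), with a line at the median. Saa3, Lcn2 and Prg4 are at 0 in all 11 SHF baseline cells, and Igfbp5 and Igfbp6 lie highest in SHF baseline.

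The 4 mesothelial cells of CNC AngII were too few for a ratio against SHF AngII, and their values are given side by side. Lcn2 was present in all 4 cells at 533 CPM (SHF AngII 471), and Saa3 in 2 of 4 at 4699 CPM (SHF AngII 1377), with 73.5% of its UMIs in 1 cell. Mt1 stood at 6375 CPM (SHF AngII 2774), with 76.1% of the UMIs in 1 cell, and Aldh1a1 at 686 CPM (SHF AngII 758). Ccl2 had 4 UMIs, Ccl7 1 and Cxcl1 0 in the CNC AngII cells, where 0 UMIs allow a level of up to 76.2 CPM. Igfbp5 stood at 1498 CPM (SHF AngII 1212), with 93.2% of the UMIs in 1 cell. With most of these sums in 1 cell, the order of the lineages cannot be read from them.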

How the data were processed

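The deposited tables hold raw UMI counts per gene and barcode, with no normalisation, for 3 of 4 labelled samples. Per the submitters' processing notes, fastp, STAR 2.5, HTSeq 0.6.1 and build mm10 were used, with no roles given; cell calling is not given in the sources used here. Gene names of the baseline file were paired with those of the AngII files, 517 of them through a unique synonym; 13 repeated names were left out, and 18111 common genes held at least 99.6% of the UMIs of each library.

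Per class and library, UMIs were summed and scaled to CPM of the total over all genes. Intervals (95%) are exact Poisson, Clopper-Pearson or conditional binomial intervals. A sum of 0 has a bound of 3 UMIs. Folds given as at least a value set the 0 sum at that bound and leave out the counting error of the other sum. The exact intervals of such ratios can reach lower. Under AngII their lower ends were log2 ratios of 3.30 for Prg4, 3.04 for Ccl7 and 2.65 for Cxcl1, against 3.61, 3.35 and 2.97 at the bound. Named genes were the 15 highest and 10 lowest called genes against fibroblasts, by the library nearest to 0, and the 5 highest and 5 lowest under AngII by the interval bound nearest to 0. Each needed a UMI in 25% of the cells of the higher class; under AngII, genes beyond 8-fold in fibroblasts were left out. List genes were also named; those named for their values are descriptions. The members and lists were chosen with earlier results of these data known. Python 3.11.15, scipy 1.17.1, pandas 2.3.3 and scanpy 1.11.5 were used, and the ratio code was checked on simulated counts. Gene positions are from GENCODE M21. No sequencing depth per library beyond the UMI totals (92474476, 147854476 and 150954701 in SHF baseline, SHF AngII and CNC AngII) is known, and no test was made.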

Additional observations from a re-analysis of the deposited data

Results flagged for a closer look

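Barcodes outside the cells analysed also carried the mesothelial markers. In SHF baseline, 4 of 833 barcodes that failed the limits on genes or mitochondrial UMIs met the marker rule, against 11 among the 8579 cells kept; in SHF AngII and CNC AngII the number was 1 in each. In SHF AngII, 7 cells with at least 2 marker genes were barred, 5 by Myh11 and 2 by Pecam1. Of these 7 cells, 5 held at least 8 of the 16 other mesothelial genes, at a median depth of 18771 UMIs for the 7 cells, against 13028 for the 35 kept mesothelial cells. Whether these barcodes are doublets was not tested.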

How the results depend on the processing

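Shares of mesothelial cells moved by less than their counting intervals under all alternatives run (SHF baseline 0.0933 to 0.166%, SHF AngII 0.274 to 0.448%, CNC AngII 0.0160 to 0.0382%). The minimum level moved the counts. At 100 CPM, 120 genes were higher and 112 lower than in fibroblasts, and 107 were higher and 155 lower under AngII. With no minimum but 1 UMI these were 555 and 1044, and 628 lower under AngII. Thinning to 2000 UMIs per cell left 71 higher and 184 lower under AngII, of which 49 and 90 were among those called at full depth. No named or list gene reversed against fibroblasts (81 genes, 1377 values). Under AngII, a sum of 0 UMIs was set at the bound of 3, and 11 of 860 values for 55 called genes reversed. With at least 3 rule genes these were Clec3b (log2 ratio 0.45), Dpt (0.091), Fbn1 (0.13) and Mfap5 (0.77). Without cells that met the fibroblast definition they were Fbn1 (0.067), Gsn (1.39), Mfap5 (2.94) and, at the bound, Pi16 (0.19); Clec3b, Dpt and Col12a1 gave no value there, with 0 baseline UMIs and AngII levels under the bound. Both settings leave out the baseline cell with the fibroblast profile. With cells limited to 1000 genes or more and to 5% mitochondrial UMIs or less, Wfdc2 stood at 0.29; the baseline cell with 83.0% of its UMIs has 5.88% mitochondrial UMIs and is left out there. Without the baseline cell with the most UMIs of the gene, Dpt stood at 0.14 and Fbn1 at 0.0032. Leaving out that cell of either library, the deepest cell of each library or the cells with at least 50 Acta2 UMIs, was chosen after seeing the data. No paired analysis was possible because each group has 1 library. Depth limits CNC AngII most: 3 UMIs there equal 76.2 CPM, against 30.2 in SHF baseline and 5.29 in SHF AngII.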
